A study of Mus musculus with 6 samples.

Results

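The genes that copy the genome and supply its nucleotides were read in differentiated brown adipocyte cultures of Scr control and MICT1 KO cells. Members were the rows of the deposited expression table whose symbol was on a fixed list of 51 DNA replication and nucleotide supply genes. All 51 were found among the 13283 genes of the table, and all 51 passed the filter on low values. By role they were 15 origin licensing genes, 8 origin firing and helicase genes, 9 polymerase and primase genes, 11 fork, clamp and ligation genes, 5 nucleotide enzymes and 3 genes of S phase entry.

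RNA-seq covered 3 Scr and 3 MICT1 KO libraries of an immortalized mouse brown preadipocyte line (BAT cells). Both groups stably expressed Cas9. The Scr cells had received a scrambled sgRNA (the labels call them WT), and the MICT1 KO cells were GFP-sorted pools, not clones, made with lentiviral sgRNAs against the gene of a microprotein named MICT1. Every culture had been taken through adipogenic differentiation and then held in 10 µM forskolin, an activator of adenylyl cyclase, for 6 h on day 6. The labels do not say which of the pools made with different sgRNAs gave each library, and MICT1 itself is not among the genes analysed here, so the targeted gene did not check the labels. Replicates were separate samples of 1 cell line, and p-values measure the spread between these samples. No library stood apart from its group: Pearson correlations of log2 values across genes, which are not independent replicates, were 0.987 or more within groups and 0.940 or less between them.

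Replication begins in G1, when the origin recognition complex with Cdc6 and Cdt1 loads the Mcm2 to Mcm7 helicase ring onto origins, a step called licensing that geminin holds back later in the cycle. In S phase the Dbf4-Cdc7 kinase and cyclin-dependent kinases switch the loaded rings on by adding Cdc45 and the GINS complex, after which polymerases α, δ and ε copy the strands while the clamp PCNA and its loader hold them to the template. Ribonucleotide reductase, thymidylate synthase and thymidine kinase supply the deoxynucleotides, and much of this machinery is transcribed under E2F factors. Fully differentiated brown adipocytes have left the cell cycle, whereas their precursors divide.

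The licensing genes were mostly lower in MICT1 KO and the nucleotide enzymes mostly higher. All 6 helicase subunit genes (Mcm2 to Mcm7) were lower, by log2 fold changes of -0.55 to -0.18, and the licensing factor Cdt1 fell further (-0.72). Both subunit genes of ribonucleotide reductase, thymidine kinase 1 and thymidylate synthase were higher (0.26 to 0.56), as was Dbf4, the activating subunit of the origin firing kinase (0.83). Polymerase and fork genes were called in both directions. Of the 51 members, 12 were higher and 18 lower at an adjusted p under 0.05 (limma-trend with Benjamini-Hochberg adjustment over the 12507 genes tested), and 21 were not called. Over all genes tested 56.9% were called, 28.5% as higher and 28.3% as lower, so the 58.8% of members called was near the background. The median log2 fold change was -0.090 over the members and -0.0053 over all genes tested. With 3 libraries a group, an exact permutation test of a single gene cannot give a two-sided p below 0.1, so each call uses the variance limma pools over genes. In these whole cultures, fewer cells of a type and less RNA per cell cannot be told apart.

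**Figure D1:**
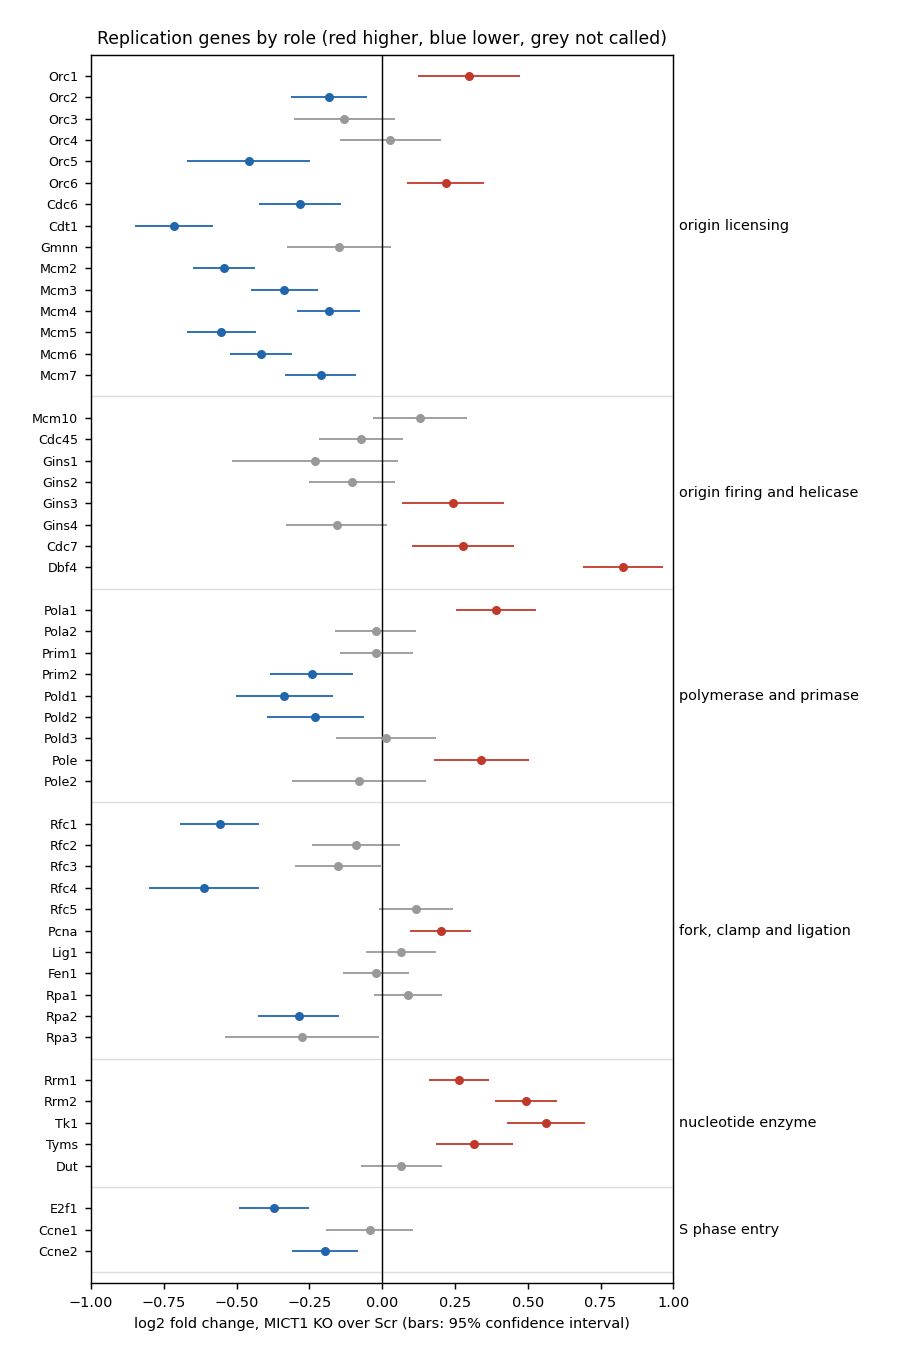
Log2 fold change of each of the 51 members, MICT1 KO over Scr (horizontal axis), with its 95% confidence interval as a bar, grouped by role; red points were called higher, blue points lower and grey points were not called. Mcm2 to Mcm7 and Cdt1 lie left of 0, and Rrm1, Rrm2, Tk1, Tyms and Dbf4 lie right of it.

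The changes were small next to those elsewhere in the table. A call with a change of at least 1.5-fold was reached by 3 members, Cdt1, Dbf4 and Rfc4, against 25.8% of all genes tested. None of the 51 had a change of 1.8-fold with an unadjusted p under 0.05 (17.5% of all genes tested), the size of change used in the methods of the study, and none a called change of 2-fold (13.7%). Every MICT1 KO value lay above every Scr value for 13 members (30.9% of all genes tested) and below for 20 (31.2%), and the groups overlapped for 18, while they did not overlap for 62% of all genes tested.

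**Figure D2:**
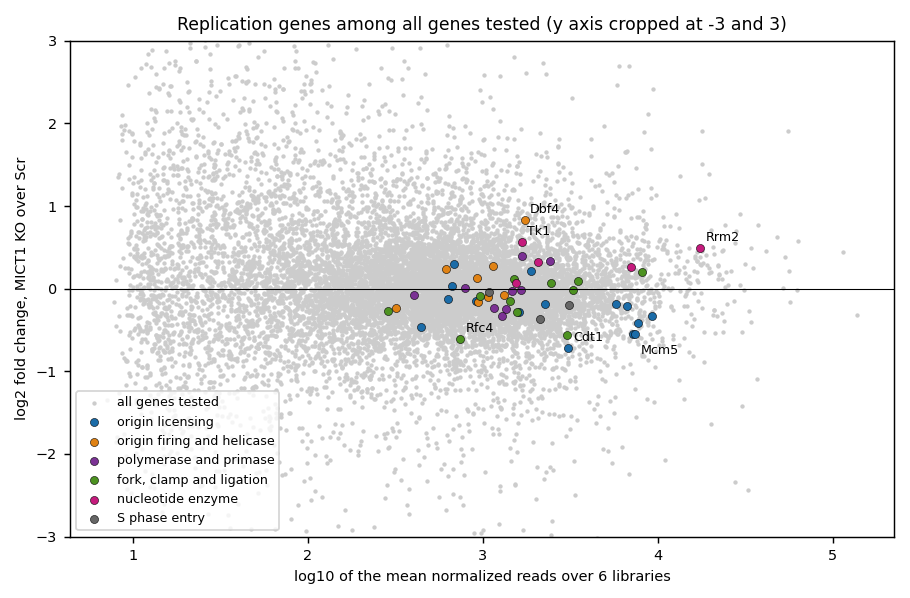
Log2 fold change, MICT1 KO over Scr, against log10 of the mean normalized reads over the 6 libraries; grey points are all genes tested and coloured points the 51 members by role, with the vertical axis cropped at -3 and 3. The members lie among the well expressed genes, between Cdt1 (-0.72) and Dbf4 (0.83).

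Markers of dividing cells differed between the same libraries. All 9 were higher in MICT1 KO (28.5% of all genes tested were), by log2 fold changes between 0.52 and 0.92 (median 0.78). Their summed CPM was 1649 to 1867 in Scr and 2894 to 3176 in MICT1 KO libraries. Birc5 (0.92), Mki67 (0.86), Ccna2 (0.86) and Bub1 (0.84) changed most, followed by Aurkb (0.78), Top2a (0.78), Plk1 (0.72), Cdk1 (0.62) and Ccnb1 (0.52), each with adjusted p under 0.05 by limma-trend. These genes act mainly from S phase to mitosis. The list of brown adipocyte markers moved the other way: 9 of 9 tested were lower (28.3% of all genes tested were). The summed CPM of the 10 in the table was 7145 to 8662 in Scr and 910 to 1296 in MICT1 KO. Fabp4 and Lpl made up most of that sum. Pparg, Fabp4 and Adipoq are adipogenic rather than thermogenic markers in the paper, so the fall is not particular to brown adipocyte genes. Of the thermogenic genes of the list, Cidea, Dio2, Elovl3 and Cox8b are not in the table. Ucp1 went from only 25.1 to 4.10 normalized reads on average, and Ppargc1a (5.50 to 7.52) was too low to be tested. Adipose progenitor markers summed to 1338 to 1475 CPM in Scr and 2622 to 2876 in MICT1 KO (7 of 10 in the table, 4 higher and 2 lower of 6 tested). Most of that rise was Col1a1 (17955 to 30595 normalized reads on average) and Dcn (365 to 9707), and Pdgfrb and Ly6a were higher too. Dlk1 (687 to 63.9) and Pdgfra (2307 to 2025) were lower, so the list did not move together. Macrophage markers summed to 16.6 to 23.1 and 31.8 to 39.2 CPM (4 of 10 in the table, of which Cd14 was higher and Cd68, Csf1r and Mrc1 were not called), endothelial to 0.369 to 0.725 and 1.59 to 2.03 (1 of 7), and skeletal muscle to 4.04 to 4.85 and 4.21 to 7.31 (3 of 8). The part of the mix of cells in the results on replication genes was not tested.

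At the start of licensing stands the origin recognition complex, 6 subunits that bind origins through the cycle. Its genes did not move together. Orc1, the subunit whose amount varies most through the cycle in many cells, was higher (616 ± 21.3 to 758 ± 49.7 normalized reads, SD, n = 3; log2 fold change 0.30, adjusted p = 0.00477, limma-trend), as was Orc6, the smallest subunit, which helps to load the helicase (1746 to 2031 on average; log2 fold change 0.22, adjusted p = 0.00600, limma-trend). Orc5 was lower, with 500.5, 489 and 541 in Scr against 389, 385 and 340.0 in MICT1 KO (log2 fold change -0.46, standard error 0.10, adjusted p = 0.000625, limma-trend). No Orc5 value of one group lay among those of the other. Orc2 was lower by less (2398 to 2115; log2 fold change -0.18, adjusted p = 0.0177, limma-trend), and the call was lost without Scr replicate 3 (log2 fold change -0.14, adjusted p = 0.0831) or without MICT1 KO replicate 1 (log2 fold change -0.15, adjusted p = 0.0626). Orc3 (-0.13, adjusted p = 0.198) and Orc4 (0.028, adjusted p = 0.796) were not called by limma-trend.

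Cdt1, which brings the helicase ring to the recognition complex, had the largest fall of all 51 members. Its values were 3731, 3937 and 3786 in Scr against 2579, 2221 and 2190.2 in MICT1 KO. The lowest Scr library lay well above the highest MICT1 KO library, and the group means went from 3818 ± 107 to 2330.0 ± 216 (SD, n = 3; log2 fold change -0.72, standard error 0.064, adjusted p = 5.44e-09, limma-trend). Leaving out any 1 library gave log2 fold changes of -0.79 to -0.67. Cdc6, the ATPase that works with Cdt1, was lower as well (1764 ± 105 to 1449 ± 76.9; log2 fold change -0.28, adjusted p = 0.00124, limma-trend). Geminin (Gmnn), which binds Cdt1 and blocks relicensing, had 895, 1046 and 933 in Scr against 966, 798 and 833 in MICT1 KO. Its groups overlapped and it was not called (log2 fold change -0.15, adjusted p = 0.150, limma-trend; 95% interval -0.33 to 0.031), although it was called without MICT1 KO replicate 1 (log2 fold change -0.23, adjusted p = 0.0291). The ratio of Cdt1 to Gmnn in RPKM, a level per exon length, was 1.94, 1.76 and 1.89 in Scr against 1.25, 1.30 and 1.23 in MICT1 KO. Every MICT1 KO library thus had less Cdt1 transcript per geminin transcript than any Scr library.

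The 6 subunits of the replicative helicase form a ring with 1 copy of each. Mcm5 changed most among them, with normalized reads of 8145, 8889.8 and 9331 in Scr against 5827, 6167 and 5958 in MICT1 KO (log2 fold change -0.55, standard error 0.057, adjusted p = 4.28e-08, limma-trend). Mcm2 followed with 8337, 8513 and 8916 in Scr against 5896, 5766 and 6014 in MICT1 KO (log2 fold change -0.54, standard error 0.052, adjusted p = 1.39e-08, limma-trend). For both genes the highest MICT1 KO library lay far below the lowest Scr library. Mcm6 had 8499, 8948 and 9054 in Scr against 6680.0, 6557 and 6634 in MICT1 KO (log2 fold change -0.41, standard error 0.051, adjusted p = 6.06e-07, limma-trend), and Mcm3 had 9666, 10473 and 11004 in Scr against 8319, 8035 and 8278 in MICT1 KO (log2 fold change -0.34, standard error 0.055, adjusted p = 2.53e-05, limma-trend). These groups did not overlap either. The smallest changes were those of Mcm7, with 6686, 6939 and 7822 in Scr against 6290.3, 6206 and 5992 in MICT1 KO (log2 fold change -0.21, standard error 0.059, adjusted p = 0.00446, limma-trend), and Mcm4, with 5946, 6226 and 6245 in Scr against 5556, 5285 and 5373 in MICT1 KO (log2 fold change -0.18, standard error 0.052, adjusted p = 0.00490, limma-trend). The intervals of Mcm2 (-0.65 to -0.44) and Mcm4 (-0.29 to -0.076) did not overlap, so the ring's genes did not move by 1 common factor. Within the summed RPKM of the 6 genes, the percent due to Mcm5 went from 19.3 ± 0.330 to 16.9 ± 0.606 and that of Mcm2 from 10.8 ± 0.239 to 9.57 ± 0.190 (SD, n = 3). The percent due to Mcm4 went from 15.0 ± 0.436 to 17.0 ± 0.307 and that of Mcm7 from 14.1 ± 0.540 to 15.7 ± 0.353, with no overlap between groups in any of these 4. Mcm3 had the largest share, 24.2 ± 0.321 percent in Scr and 24.7 ± 0.328 in MICT1 KO, and its groups overlapped. All 6 genes were called with each library left out and under each of the other alternatives tried. Over the licensing genes together, 10 of 15 were lower and 2 higher (median log2 fold change -0.21), and 3 (Orc3, Orc4 and Gmnn) were not called. Over all genes tested 28.3% were lower and 28.5% higher.

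**Figure D3:**
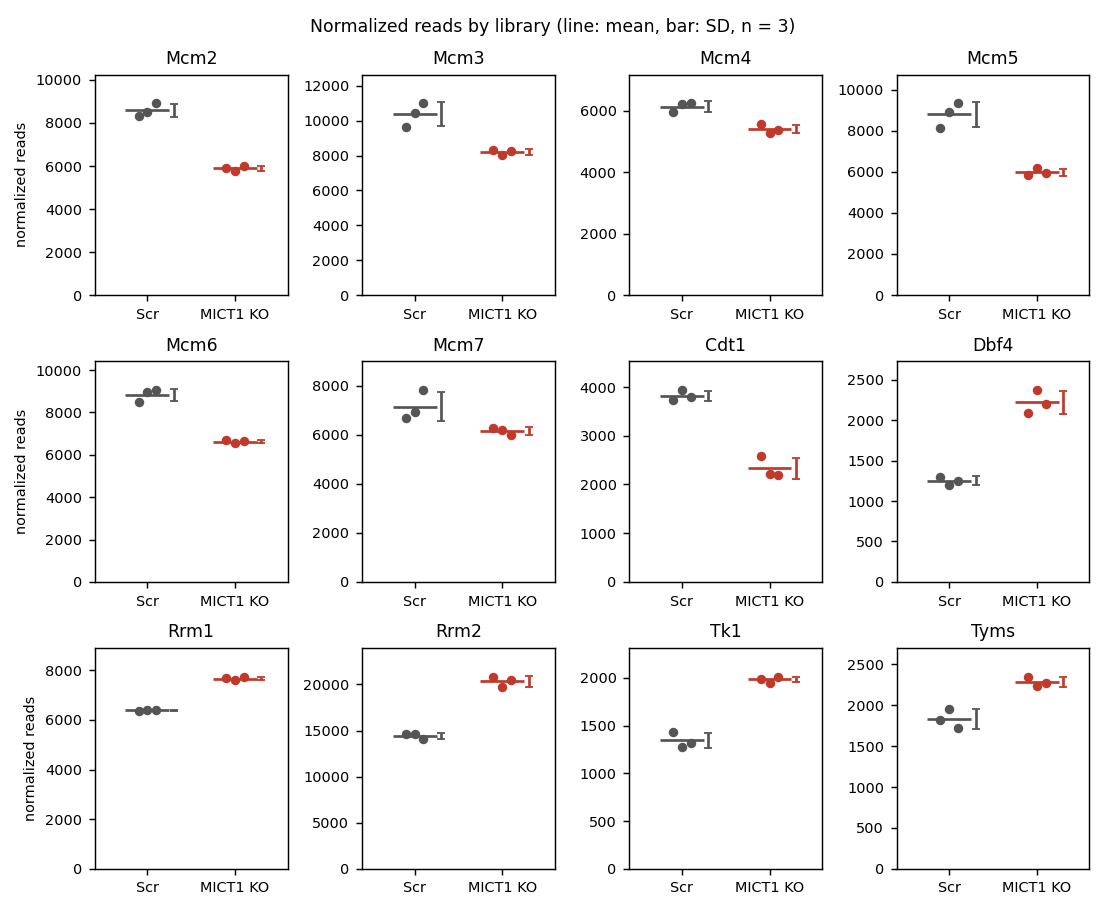
Normalized reads in each library for the 6 helicase subunit genes, Cdt1, Dbf4 and 4 nucleotide enzyme genes; points are libraries, the line is the mean and the bar beside it the SD (n = 3 a group), and each vertical axis starts at 0. The groups do not overlap in any of the 12 panels, with MICT1 KO below Scr for Mcm2 to Mcm7 and Cdt1 and above it for the other 5 genes.

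The promoters of some of these genes were read for the letters that E2F factors bind. RefSeq (GRCm38.p6) gave a window from 250 bases before to 50 bases after an annotated start for 42 of the 51 members. Some genes had several windows. The E2F letters searched were TTTCCCGC, TTTGGCGC, TTTGCCGC and TTTCGCGC on both strands. They were in the windows of 15 of 42 members (35.7%), of 4.93% of the 9995 tested genes with a window, and of 2.26% of all 32851 windows of this length. By role they were in 8 of 13 licensing genes with a window (Orc1, Orc3, Cdc6, Cdt1, Mcm3, Mcm5, Mcm6 and Mcm7), 4 of 7 polymerase and primase genes, 2 of 10 fork genes, 1 of 5 firing genes, 0 of 5 nucleotide enzymes and 0 of 2 S phase entry genes. By call they were in 3 of 11 higher, 7 of 15 lower and 5 of 16 uncalled members, so a match stood beside each direction. The 4 windows below show the members with such a match that fell most (Cdt1 and Mcm5) and rose most (Pola1, the catalytic subunit of polymerase α, and Orc1). Each is read along the strand of its gene, with the matched letters in capitals, and a match marked as minus strand appears as its reverse complement.
Cdt1 (chr8:122567765-122568064, plus strand): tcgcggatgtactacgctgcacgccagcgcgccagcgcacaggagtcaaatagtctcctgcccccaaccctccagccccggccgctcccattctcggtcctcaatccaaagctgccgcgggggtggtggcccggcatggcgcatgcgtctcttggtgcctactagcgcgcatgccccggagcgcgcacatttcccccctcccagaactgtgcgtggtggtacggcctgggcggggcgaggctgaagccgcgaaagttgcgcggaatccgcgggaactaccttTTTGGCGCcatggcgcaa
Mcm5 (chr8:75109259-75109558, plus strand): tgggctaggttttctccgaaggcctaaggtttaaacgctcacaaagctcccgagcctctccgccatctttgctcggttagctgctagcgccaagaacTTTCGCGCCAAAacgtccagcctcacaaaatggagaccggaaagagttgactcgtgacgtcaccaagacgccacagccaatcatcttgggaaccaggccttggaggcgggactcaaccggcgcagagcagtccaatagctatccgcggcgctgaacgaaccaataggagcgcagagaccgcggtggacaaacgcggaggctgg
Pola1 (chrX:93632106-93632405, minus strand): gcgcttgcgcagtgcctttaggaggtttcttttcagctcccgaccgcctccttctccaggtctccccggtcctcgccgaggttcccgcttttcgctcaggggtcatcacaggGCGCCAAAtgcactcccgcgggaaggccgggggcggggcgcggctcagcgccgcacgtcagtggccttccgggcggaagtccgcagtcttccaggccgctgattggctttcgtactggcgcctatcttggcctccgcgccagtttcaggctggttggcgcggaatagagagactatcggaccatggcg
Orc1 (chr4:108579204-108579503, plus strand): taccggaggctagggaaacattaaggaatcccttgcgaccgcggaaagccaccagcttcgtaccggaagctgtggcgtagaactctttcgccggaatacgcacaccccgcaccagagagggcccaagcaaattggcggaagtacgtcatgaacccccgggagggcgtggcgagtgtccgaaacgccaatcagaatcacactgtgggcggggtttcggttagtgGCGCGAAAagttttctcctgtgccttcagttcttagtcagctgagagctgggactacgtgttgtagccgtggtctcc
In Cdt1 the match lay at bases 283 to 290 of the window, past the start of the gene. In Mcm5 a plus strand match at bases 98 to 105 ran into a minus strand match at bases 102 to 109, and both were before the start. The minus strand matches of Pola1 (bases 113 to 120) and Orc1 (224 to 231) were before the start used for their windows. Both matches still lay inside the gene spans, chrX:93304766-93632387 on the minus strand for Pola1 and chr4:108575705-108616030 for Orc1. These are matches of letters, not measured binding.

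Letters of other cell cycle elements were searched in the same windows, on both strands. CCAAT, the box that NF-Y binds, was in 23 of 42 members (54.8%) against 44.0% of tested genes and 37.4% of all windows, and Mcm2, Mcm3, Mcm5, Mcm6, Mcm7, Rrm1 and Rrm2 were among them. TTTGAA, the cell cycle homology region through which many genes of late cycle phases are held down in resting cells, was in 7 of 42 members (16.7%) against 14.4% of tested genes and 17.9% of all windows. These were Cdc7, Dbf4, Gins3, Cdc45, Mcm2, Pold2 and Fen1. By call, TTTGAA was in 3 of 11 higher, 2 of 15 lower and 2 of 16 uncalled members. CCAAT was in 7 of 11 higher, 9 of 15 lower and 7 of 16 uncalled members.

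Among the origin firing genes none was called lower and the kinase genes were higher. Dbf4, which binds and activates Cdc7, had the largest rise of all members, with normalized reads of 1302, 1192 and 1254 in Scr against 2092, 2371 and 2194 in MICT1 KO. Every MICT1 KO library lay above every Scr library, and the means went from 1249 ± 54.9 to 2219 ± 141 (SD, n = 3; log2 fold change 0.83, standard error 0.066, adjusted p = 1.03e-09, limma-trend), a 1.78-fold rise that ranged from 0.78 to 0.87 on the log2 scale with each library left out. Its kinase partner Cdc7 had 998, 1072 and 1000.3 in Scr against 1068, 1375 and 1302 in MICT1 KO (log2 fold change 0.28, standard error 0.084, adjusted p = 0.00773, limma-trend). The lowest MICT1 KO value of Cdc7 was inside the Scr range, and without MICT1 KO replicate 2 the call was lost (log2 fold change 0.21, adjusted p = 0.0566). The ratio of Dbf4 to Cdc7 in RPKM was 0.586 ± 0.0476 in Scr and 0.858 ± 0.0709 in MICT1 KO (SD, n = 3), without overlap.

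Activation adds Cdc45 and the 4 GINS proteins to the ring. Gins3 was higher (562 to 664; log2 fold change 0.24, adjusted p = 0.0181, limma-trend), a call that was lost without Scr replicate 2 (log2 fold change 0.22, adjusted p = 0.0628). The other 3 GINS genes had negative log2 fold changes and were not called by limma-trend: Gins1 (-0.23, adjusted p = 0.158), Gins2 (-0.10, adjusted p = 0.219) and Gins4 (-0.16, adjusted p = 0.113). Gins1 was called lower without Scr replicate 3 (log2 fold change -0.37, adjusted p = 0.0284) and Gins4 without Scr replicate 1 (log2 fold change -0.23, adjusted p = 0.0302). Cdc45 (-0.071, adjusted p = 0.398) and Mcm10, a factor that helps the ring to open (0.13, adjusted p = 0.162), were not called either. In all, 3 of 8 firing genes were higher, 0 were lower by limma-trend (0 also at an unadjusted p under 0.05), and the median log2 fold change was 0.029. The 37.5% called was below the 56.9% of all genes tested.

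The polymerase genes were called in both directions. Polymerase α starts new strands together with primase. Its catalytic subunit gene Pola1 was higher, with 1509, 1481 and 1331 in Scr against 1833, 1908 and 1916 in MICT1 KO (log2 fold change 0.39, standard error 0.066, adjusted p = 3.52e-05, limma-trend), while the accessory subunit Pola2 (-0.023, adjusted p = 0.790) and the catalytic primase subunit Prim1 (-0.020, adjusted p = 0.799) were not called by limma-trend. The larger primase subunit Prim2 was lower (1463 to 1236; log2 fold change -0.24, adjusted p = 0.00448, limma-trend). Pola1 per Pola2 in RPKM was 0.915 ± 0.0987 in Scr and 1.21 ± 0.0808 in MICT1 KO, with every MICT1 KO library above every Scr library.

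The 2 polymerases that extend the strands went apart in their catalytic subunits. Pole, for the leading strand enzyme ε, had 2270.0, 2114 and 1985 in Scr against 2315, 2978 and 2806 in MICT1 KO (log2 fold change 0.34, standard error 0.078, adjusted p = 0.000873, limma-trend). Pold1, for the lagging strand enzyme δ, had 1437, 1427 and 1402 in Scr against 971, 1217 and 1209.7 in MICT1 KO (log2 fold change -0.34, standard error 0.080, adjusted p = 0.00127, limma-trend). In Pole the lowest MICT1 KO library stood just above the highest Scr library, and in Pold1 all MICT1 KO libraries stood below. Pold2, the second subunit of δ, was lower (1248 to 1067; log2 fold change -0.23, adjusted p = 0.0187, limma-trend), but not without Scr replicate 2 (log2 fold change -0.17, adjusted p = 0.120) or MICT1 KO replicate 2 (log2 fold change -0.15, adjusted p = 0.119). Pold3 (0.013, adjusted p = 0.904), which ties δ to the clamp, and Pole2 (-0.080, adjusted p = 0.559), the second subunit of ε, were not called by limma-trend. The polymerase and primase list held 2 higher and 3 lower of 9 (median log2 fold change -0.023). The 55.6% called was near the 56.9% of all genes tested.

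At the fork, the clamp gene was higher and those of 2 subunits of its loader were lower. Pcna, the ring that tethers polymerases to DNA, was higher with 7531, 7562 and 7503 in Scr against 8839.5, 8452 and 8676 in MICT1 KO (log2 fold change 0.20, standard error 0.050, adjusted p = 0.00185, limma-trend). Rfc1, the largest subunit of the replication factor C loader, was lower with 3391, 3484 and 3948 in Scr against 2299, 2473 and 2569.7 in MICT1 KO (log2 fold change -0.56, standard error 0.065, adjusted p = 2.81e-07, limma-trend). Rfc4, another loader subunit, was lower with 864, 867 and 951 in Scr against 621, 514 and 626 in MICT1 KO, from 894 ± 49.6 to 587 ± 63.3 (SD, n = 3; log2 fold change -0.61, standard error 0.090, adjusted p = 6.75e-06, limma-trend). In each of these 3 genes the groups stood clear of each other. The remaining loader genes were not called by limma-trend, Rfc2 at -0.090, adjusted p = 0.305, Rfc3 at -0.15, adjusted p = 0.0764 and Rfc5 at 0.12, adjusted p = 0.117. Rfc3 was called lower without Scr replicate 1 (log2 fold change -0.22, adjusted p = 0.0209) or MICT1 KO replicate 1 (log2 fold change -0.19, adjusted p = 0.0388).

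Replication protein A coats single strands behind the helicase. Its middle subunit gene Rpa2 was lower (1729.6 ± 80.7 to 1418 ± 77.1; log2 fold change -0.29, adjusted p = 0.000978, limma-trend), whereas Rpa1, the large subunit (0.089, adjusted p = 0.184), and Rpa3, the small one (-0.28, adjusted p = 0.0703), were not called by limma-trend. Rpa3 was called lower without MICT1 KO replicate 2 (log2 fold change -0.37, adjusted p = 0.0298). The enzymes that finish lagging strand pieces were not called by limma-trend. Fen1, the flap nuclease, went from 3314 ± 10.6 to 3266 ± 104 (-0.022, adjusted p = 0.756, 95% interval -0.13 to 0.091) and Lig1, the ligase, from 2406 ± 61.1 to 2516 ± 73.8 (0.064, adjusted p = 0.353, 95% interval -0.055 to 0.18). Of the 11 fork genes, 1 was higher and 3 were lower (median log2 fold change -0.090). The 36.4% called was below the 56.9% of all genes tested.

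The nucleotide enzymes had the largest share of rises among the 6 roles of the members, 4 of 5 (median log2 fold change 0.32). Over all genes tested 28.5% were higher. Rrm2, the small subunit of ribonucleotide reductase and the one whose amount follows S phase, had normalized reads of 14624, 14662 and 14058 in Scr against 20809, 19687 and 20498 in MICT1 KO (log2 fold change 0.49, standard error 0.051, adjusted p = 5.51e-08, limma-trend). Rrm1, the large subunit, had 6351, 6403 and 6395 in Scr against 7684, 7593 and 7729 in MICT1 KO (log2 fold change 0.26, standard error 0.050, adjusted p = 0.000118, limma-trend). The MICT1 KO libraries lay above the Scr libraries in both. Tk1, which salvages thymidine, had 1433, 1280.2 and 1322 in Scr against 1989, 1951 and 2009 in MICT1 KO (log2 fold change 0.56, standard error 0.064, adjusted p = 2.20e-07, limma-trend). Tyms, which makes thymidylate from deoxyuridylate, had 1823, 1958 and 1721 in Scr against 2345, 2229 and 2271 in MICT1 KO (log2 fold change 0.32, standard error 0.063, adjusted p = 0.000214, limma-trend). No MICT1 KO value of these genes fell among the Scr values, and all 4 calls held with each library left out. Dut, which clears dUTP, was the exception at 1514 ± 39.6 to 1586 ± 112 (log2 fold change 0.066, adjusted p = 0.423, limma-trend), and its 95% interval of -0.074 to 0.20 holds changes in either direction.

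Helicase and nucleotide enzyme transcripts were also set against each other inside each library, per exon length, which leaves out any scaling between libraries. Summed RPKM of Mcm2 to Mcm7 was 671, 689.8 and 732 in Scr against 543, 540.4 and 544 in MICT1 KO. Summed RPKM of Rrm1, Rrm2, Tk1 and Tyms was 399, 388 and 378 in Scr against 546, 524 and 545 in MICT1 KO. The second sum was well below the first in every Scr library and about level with it in every MICT1 KO library. How the sums stand to each other depends on the exon lengths used, so only the difference between groups is read. Their ratio was 0.558 ± 0.0398 in Scr and 0.993 ± 0.0194 in MICT1 KO (SD, n = 3), 1.78 times higher in MICT1 KO, and Rrm2 supplied most of the second sum. Rrm2 over Mcm2 was 4.23 ± 0.237 in Scr and 8.66 ± 0.172 in MICT1 KO. These genes were put together with their directions known, so the ratios are descriptions with no test.

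**Figure D4:**
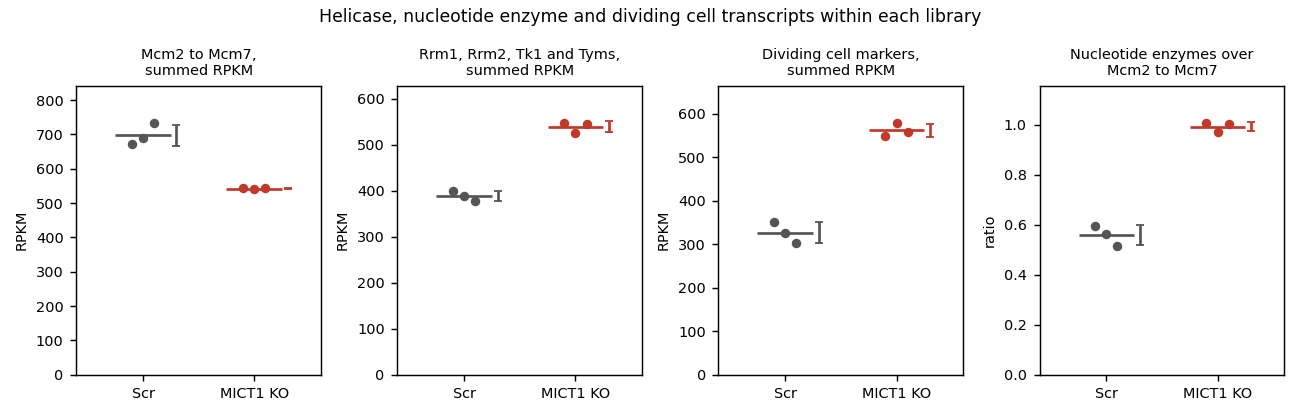
Summed RPKM of Mcm2 to Mcm7, of Rrm1, Rrm2, Tk1 and Tyms and of the 9 dividing cell markers, and the ratio of the second sum to the first, in each library; points are libraries, the line is the mean and the bar the SD (n = 3 a group). The helicase sum is lower in MICT1 KO, both other sums are higher, and the ratio is near 1 in MICT1 KO against 0.516 to 0.595 in Scr.

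Against the dividing cell markers, both sums were lower in MICT1 KO. The markers summed to an RPKM of 327 ± 23.8 in Scr and 562 ± 14.4 in MICT1 KO (SD, n = 3), 1.72 times higher. Helicase transcript per marker transcript was 1.91, 2.12 and 2.41 in Scr against 0.988, 0.936 and 0.975 in MICT1 KO. Nucleotide enzyme transcript per marker transcript was 1.14, 1.19 and 1.24 in Scr against 0.994, 0.908 and 0.978 in MICT1 KO. In either ratio each MICT1 KO library was below each Scr library, with a far wider gap for the helicase.

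Of the 3 genes of S phase entry, 2 were lower and 0 higher, where 28.3% of all genes tested were lower. E2f1, the transcription factor that switches on many replication genes, was lower, with 2362, 2417 and 2361 in Scr against 1891, 1786 and 1842 in MICT1 KO (log2 fold change -0.37, standard error 0.058, adjusted p = 1.48e-05, limma-trend). Ccne2, a cyclin E that activates Cdk2 at the start of S phase, was lower with 3295, 3342 and 3352 in Scr against 2817, 3007 and 2896 in MICT1 KO (log2 fold change -0.20, standard error 0.055, adjusted p = 0.00442, limma-trend). The groups did not overlap in either gene. Ccne1, the other cyclin E, was not called (log2 fold change -0.043, adjusted p = 0.634, limma-trend; 95% interval -0.19 to 0.11).

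Among 30 other E2F, Rb and G1/S regulators, 13 were higher and 9 lower (73.3% called, against 56.9% of all genes tested). Cdkn1c, the Cdk inhibitor p57, fell from 309 ± 15.6 to 22.0 ± 9.37 normalized reads (SD, n = 3; log2 fold change -3.84, standard error 0.26, adjusted p = 5.29e-11, limma-trend). Ccnd1, cyclin D1, rose from 412 ± 27.3 to 924 ± 33.0 (log2 fold change 1.17, standard error 0.087, adjusted p = 3.23e-10, limma-trend). These were the largest fall and rise of the list. Ccna2 (0.86, adjusted p = 2.57e-11, a dividing cell marker as well) and the Cdk4 and Cdk6 inhibitor Cdkn2d (0.85, adjusted p = 1.15e-06) were higher, and E2f2, an activator E2F, was lower like E2f1 (-0.78, adjusted p = 0.000680; limma-trend). The E2F genes did not all move together. E2f3 (-0.45, adjusted p = 0.000108) and the weakly expressed E2f6 (-1.56, adjusted p = 0.000185) were lower too (limma-trend). E2f7 (0.24, adjusted p = 0.00243) and E2f8 (0.29, adjusted p = 0.00125) were higher, and E2f4 and E2f5 were not called (limma-trend).

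Of 31 tested genes that build or guard the fork beside the members, 6 were higher and 13 lower. The 61.3% called was near the 56.9% of all genes tested. Atr, the kinase that answers stalled forks, was lower from 901 ± 20.2 to 524 ± 74.1 (log2 fold change -0.79, adjusted p = 4.24e-07, limma-trend). Pold4, the small subunit of polymerase δ, was lower like Pold1 and Pold2 (log2 fold change -0.66, adjusted p = 4.36e-07, limma-trend). So was Dscc1 (-0.63, adjusted p = 0.000412), of an alternative clamp loader, whereas its partner Chtf8 (0.56, adjusted p = 7.62e-05) and the fork factor Donson (0.51, adjusted p = 7.64e-05) were higher.

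Beyond the 5 enzymes above, 30 other nucleotide supply genes were evenly divided, 9 higher and 9 lower. The 60% called was near the 56.9% of all genes tested. Ctps2, a CTP synthetase, had the largest fall, from 723 ± 37.0 to 386 ± 49.2 (log2 fold change -0.91, adjusted p = 1.70e-07, limma-trend), and Impdh1, for guanine nucleotides, was lower (-0.40, adjusted p = 8.75e-05). Their sister genes went the other way. Ctps, with more reads than Ctps2, rose from 2548 to 3057 on average (log2 fold change 0.26, adjusted p = 0.000368, limma-trend). Impdh2 was higher by less (0.18, adjusted p = 0.0493, limma-trend). Prps2, which makes the ribose precursor of all nucleotides, rose from 354 ± 24.8 to 601 ± 27.1 (log2 fold change 0.76, adjusted p = 1.15e-06, limma-trend). Mthfd2, of mitochondrial folate metabolism (0.47, adjusted p = 4.52e-06), and the nucleoside diphosphate kinase Nme1 (0.43, adjusted p = 3.03e-05) were higher too (limma-trend). Of 10 genes that pack new DNA into chromatin, the histone chaperone Asf1b (0.54, adjusted p = 1.50e-07) and the histone mRNA binding protein Slbp (0.46, adjusted p = 2.70e-07) were higher and the chaperones Nasp (-0.35, adjusted p = 2.66e-05) and Asf1a (-0.25, adjusted p = 0.00886) lower (limma-trend). The other 6 were not called, and the 40% called was below the 56.9% of all genes tested. The call of Asf1a was lost without Scr replicate 2 (log2 fold change -0.21, adjusted p = 0.0584, limma-trend).

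**Figure D5:**
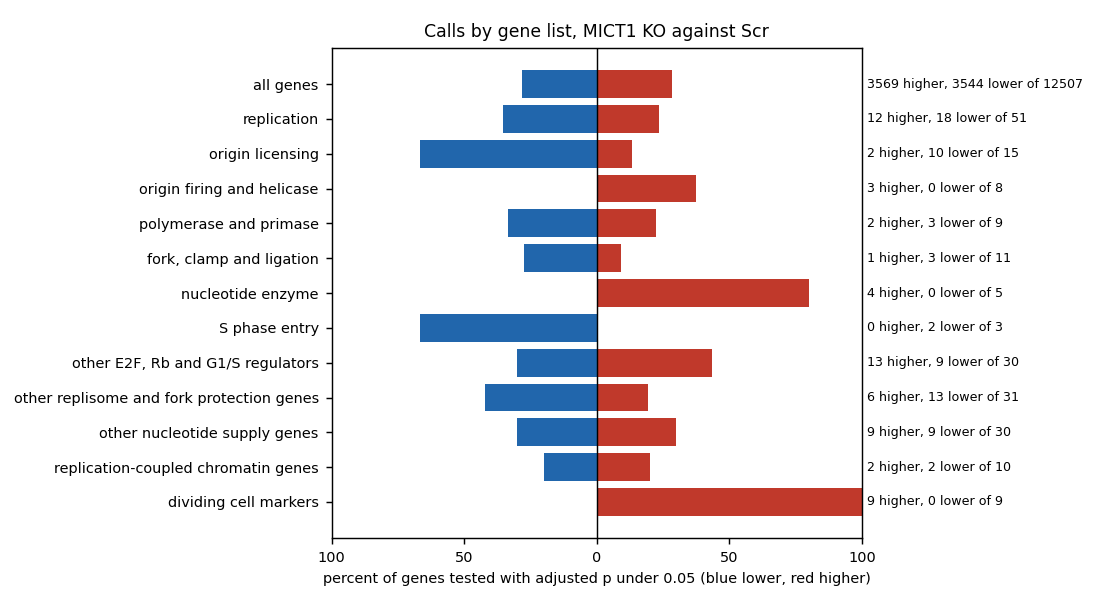
Percent of the tested genes of each list with an adjusted p under 0.05 by limma-trend, to the right where higher and to the left where lower in MICT1 KO, with the counts beside each bar. In all, 7113 of 12507 genes and 30 of the 51 members were called, the members with 12 higher and 18 lower, and licensing genes lean left and nucleotide enzymes and dividing cell markers lean right.

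By mean RPKM over the 6 libraries, 49 of the 51 members were above the median of all genes, and the median member stood at percentile 82.4. In Scr, Rrm2 was the highest at 319 ± 9.06 RPKM (SD, n = 3), and 449.6 ± 11.3 in MICT1 KO, followed by Pcna at 192 ± 2.75 and Mcm3 at 169 ± 9.53. Among the helicase genes Mcm5 (134 ± 7.98), Mcm6 (116 ± 2.66), Mcm4 (104 ± 1.65) and Mcm7 (98.7 ± 7.96) followed, and Mcm2 was the lowest at 75.4 ± 2.44, within its spread of Cdt1 at 74.3 ± 1.03. The lowest members were Orc3 (6.65 ± 0.296), Orc4 (5.42 ± 0.0654) and Orc5 (5.06 ± 0.295), with Orc6 at 43.2 ± 2.34. The length used joins all annotated exons of a gene, 6166 bases for Orc5 and 2469 for Orc6. Their mean normalized reads in Scr were 510 and 1746, so the order of genes by RPKM depends in part on the lengths used.

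How the authors assigned reads touches some of these values. Values of 42 members were whole reads (tolerance 0.05 of a read) in all 6 libraries, and 9 carried split reads in at least 1 library, namely Orc4, Mcm5, Mcm6, Mcm7, Dbf4, Rfc4, Lig1, Rpa1 and Ccne2, as arises where a read is divided between genes or copies. Exons of 14 members overlap those of another gene of the table, nearly always on the opposite strand, such as Mcm7 with Cops6 and Ap4m1, Rfc4 with Eif4a2, Tk1 with Afmid, Orc2 with Nif3l1 and Orc6 with Vps35. The libraries were strand-specific by the methods, and whether the counting used the strand is not given in the sources used here. The 7 genes with the largest changes lie at chr5:8396969-8422725 (Dbf4), chr8:122568015-122573130 (Cdt1), chr16:23113948-23127730 (Rfc4), chr11:117815519-117826087 (Tk1), chr5:65261852-65338617 (Rfc1), chr8:75109468-75128439 (Mcm5) and chr6:88883474-88898780 (Mcm2), gene spans on GRCm38 from RefSeq.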

How the data were processed

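Strand-specific total RNA libraries were sequenced in pairs, and the authors aligned the reads with Partek software to the mouse genome (mm10). The submitters' processing notes also name STAR and DESeq2, with no role given. In the table deposited by the authors each gene has a normalized signal: within each library 88.7 to 90.2% of the values under 20 were whole multiples (tolerance 0.01) of the worth of 1 read, so they were read as estimated reads divided by a size factor. The counting model, the gene annotation and the normalization are not given in the sources used here. The recovered depth was 15445813 to 17925628 reads a library. Library sums gave CPM and, with GENCODE vM21 exon lengths (all annotated exons of a gene joined, 12910 genes, 97.2%), RPKM. Since the signal is not counts, the main fit used no count test. Limma-voom, a model made for counts, was run on the same signal only as an alternative. A fold change is that of log2(value + 1), which understates changes of low genes.

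Genes that reached 10 in 3 or more libraries (12507 of 13283) entered 1 limma-trend fit (R 4.3.3, limma 3.58.1) of the 3 MICT1 KO against the 3 Scr libraries, with no covariate and no batch in the labels. P-values were adjusted over all genes tested by the Benjamini-Hochberg method, with a threshold of 0.05. In simulated libraries of 12397 genes the fit recovered 63 of 73 genes changed 1.5-fold (86.3%) and 61 of 61 changed 2-fold, with 7 false calls. Those libraries held whole counts with the same dispersion for every gene, and only 200 well expressed genes were changed. The data differ in each of these points, so the recovery and false calls in them were not measured. The members and all lists were chosen with earlier results of these data known, so no list was tested as a set. Every member was named, with the largest changes of each list of other pathway genes (at least 5 CPM). Ctps, Impdh2 and the E2F genes other than E2f1 and E2f2 were named after their values were seen. Library values are given in full for members changed at least 1.5-fold and, chosen after their values were seen, for other members. The alternatives were 8 other scalings, filters, pseudocounts and models and 6 fits that left out a library each. The search for protein motifs was not run.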

Additional observations from a re-analysis of the deposited data

How the results depend on the processing

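Under the 8 alternatives of scaling, filter, pseudocount, model and replicate block, 0 of the 51 members changed call or direction, and 30 were called in each (12 higher and 18 lower). With the replicate block the counts were again 30, 12 and 18, and 7055 genes in all. Same-numbered libraries showed little common deviation from their group means (r across genes of -0.024, -0.015 and 0.064). Libraries with different numbers gave r of -0.043 to 0.056. No clear sign of pairing by number was thus seen. With 3 libraries a group these correlations cannot settle whether same-numbered samples were prepared together.

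With each of the 6 libraries left out, 28 to 32 members were called, 11 to 12 as higher and 17 to 20 as lower, and 4 called members lost their call, 5 gained one and 4 uncalled members turned in direction. Firing genes called lower were 0 to 1 (1 without Scr replicate 1 or 3), chromatin genes called lower were 1 to 3, and the median log2 fold change of the members was -0.12 to -0.076. The log2 fold change ranged from -0.019 (without MICT1 KO replicate 2) to 0.069 for Orc4, from -0.064 to 0.0021 and 0.020 (without Scr replicate 3 and MICT1 KO replicate 3) for Pola2, from -0.13 to 0.0073 (without MICT1 KO replicate 2) for Pole2, and from -0.023 to 0.079 for Pold3, which was below 0 without Scr replicate 1 or 3 or MICT1 KO replicate 1 or 3. Fewer samples enter those fits, and no cause beyond that was tested. With 3 libraries a group, changes under 1.5-fold, as most members have, may be missed at this depth.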
